A study of Homo sapiens with 6 samples.

Results

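The genes described here are 10 feedback brakes of mitogen-activated protein kinase (MAPK) signalling: the dual-specificity phosphatase genes DUSP1, DUSP4, DUSP5, DUSP6, DUSP8 and DUSP10, the Sprouty genes SPRY2 and SPRY4, and the Sprouty-related genes SPRED1 and SPRED2. They were chosen by symbol, with earlier results of these data known, and each matched 1 of the 60617 Ensembl identifiers in the count table. RNA was measured in 3 libraries of wild-type A549 cells, an established line from a human lung carcinoma, and in 3 libraries of the same line with YTHDF1 knocked out. YTHDF1 is a cytoplasmic reader of N6-methyladenosine (m6A), a modified base of mRNA. Both groups were grown in the same medium with serum and no treatment is named. The sample titles call the libraries of each group biological replicates. The sources used here do not give the editing method or say whether these replicates are separate clones or cultures. The p-values weigh the difference against the spread between these libraries, and how far that spread is technical is not known.

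In the MAPK cascades a growth factor receptor or a stress signal activates a chain of kinases that ends in ERK, JNK or p38. Active ERK enters the nucleus and switches on, among other genes, the genes of its own inhibitors. The DUSP proteins of this set remove phosphate from the MAPKs themselves. Sprouty and SPRED proteins act further up, between the receptor and RAF. YTHDF1 itself is known for effects on translation and stability of m6A-marked mRNAs.

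YTHDF1 RNA checked the labels: it was 98.0, 104 and 96.4 CPM (counts scaled to library size with TMM factors) in wild type and 48.6, 48.6 and 47.1 CPM in the knockout. It was lower in each knockout library, with a log2 fold change of -1.05 (SE 0.0526, edgeR adjusted p 7.84e-18), and RNA of the targeted gene was still detected. The libraries held between 27238817 and 40675628 counts. The line's keratin genes KRT8 and KRT18 were high, with means of 1576 and 489 CPM in wild type, while EPCAM was low at 2.10 CPM, and CDKN2A, which this line lacks, had 0 counts in the 6 libraries. Mitochondrially encoded mRNAs took 5.76% to 5.92% of counts in wild type and 3.72% to 3.98% in the knockout. Of 10 markers of other cell types, CD3E and HBB had 0 counts, 7 in all were too low to test, CD14 fell from 11.1 to 3.45 CPM, COL1A1 and ACTA2 rose, and the summed level was 45.7 to 49.3 CPM in wild type and 55.2 to 57.5 CPM in the knockout. The part of these differences in the results was not tested, except that leaving out the mitochondrially encoded genes changed the call of 0 of the 10 genes.

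The stretches before the start sites of DUSP1 and DUSP8 are shown because they alone among the genes matched hold the CRE word, the 8-base TGACGTCA bound by CREB-type factors. Sequences are from RefSeq on GRCh38.p14, and 8 of the 10 genes matched there, in 12 windows. DUSP4 and DUSP5 did not match. Each run below is the 250 bases before the start, on the minus strand, with the CRE in capitals.
DUSP1 (chr5:172771196-172771445): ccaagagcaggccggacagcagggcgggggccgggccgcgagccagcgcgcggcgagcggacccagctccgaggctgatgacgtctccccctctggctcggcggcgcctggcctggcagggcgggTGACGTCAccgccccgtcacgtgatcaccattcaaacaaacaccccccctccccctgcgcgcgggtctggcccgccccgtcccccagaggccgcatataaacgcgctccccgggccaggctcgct
DUSP8 (chr11:1572272-1572521): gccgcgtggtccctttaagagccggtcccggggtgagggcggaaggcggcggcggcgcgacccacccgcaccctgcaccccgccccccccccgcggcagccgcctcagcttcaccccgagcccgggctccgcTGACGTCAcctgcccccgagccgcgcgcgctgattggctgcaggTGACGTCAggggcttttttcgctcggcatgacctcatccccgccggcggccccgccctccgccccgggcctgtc

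The CRE reads the same on both strands. It begins 125 bases before the start in DUSP1, and 118 and 74 bases before it in DUSP8. Of 35116 windows of this length, 1.65% held it. The 6-base core TGACGT, which lies within each CRE on both strands, occurred at 1 more place in DUSP1, 172 bases before the start, and in 7.1% of all windows. An E-box, CACGTG, stood 108 bases before the start of DUSP1, and 6.34% of all windows held one. The ETS word CCGGAA was in 1 of the 12 windows, 142 bases before 1 start of SPRY2, and in 14.5% of all windows. On both strands, 0 of the 12 windows held the AP-1 word TGANTCA (6.57% of all windows), the CArG box of serum response elements (1.16%), the interferon-stimulated response element (3.02%), the GAS word TTCNNNGAA (6.57%) or the NF-kB motif (5.21%). A match is a description of letters, not a bound site, and a missing match covers only these windows.

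Because YTHDF1 binds m6A, the 5-base word GGACT, the commonest form of the m6A consensus, was counted in the longest coding GENCODE 29 transcript of each gene. The word alone does not show that a site is methylated, and m6A was not measured in these libraries. DUSP8 held 0 copies in 4480 bases, and DUSP4 held the most, 11 in 5537 bases. Per kb, DUSP4 and DUSP1 had 1.99 and 1.98 copies, SPRY2 1.85, DUSP5 1.56, SPRED2 1.46 and DUSP6 1.36. SPRY4 had 0.81, DUSP10 0.75 and SPRED1 0.64, below the median of 0.94 over 13892 coding genes tested. The copy nearest to the stop codon is printed for the gene with the largest well-measured rise and for the 3 genes of the Sprouty and SPRED families that fell, as 21 bases of the transcript strand on GRCh38 with GGACT in capitals.
DUSP5 (chr10:110510600-110510620, plus strand, 3' UTR): ggttctcgGGACTgaaggaag
SPRED1 (chr15:38351983-38352003, plus strand, 3' UTR): aggtgatgGGACTtttaaagg
SPRY2 (chr13:80337047-80337067, minus strand, coding): tgactatgGGACTtgtgtatg
SPRY4 (chr5:142312770-142312790, minus strand, 3' UTR): gtgctaaaGGACTcagaaggt

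These copies lie 184, 329 and 1429 bases after the first base of the stop codon in DUSP5, SPRED1 and SPRY4, and SPRY2 has its nearest copy within the coding sequence. DUSP5 carried 4 copies, all in the 3' UTR, and SPRY4 likewise 4. The genes that rose and the genes that fell were found on both sides of the median density.

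The comparison of knockout with wild type asks how the RNA of each brake differed when YTHDF1 was disrupted. DUSP5 rose about 5-fold and the sparse DUSP8 rose by a like factor, DUSP10, DUSP6 and DUSP1 were higher by smaller amounts, SPRY2, SPRY4 and SPRED1 fell, DUSP4 was slightly lower and SPRED2 did not pass the test. Of the 10 genes, 9 passed edgeR's quasi-likelihood test at an adjusted p threshold of 0.05, 5 higher and 4 lower. Among all 18505 genes tested, 53.5% passed, 27.2% higher and 26.3% lower. DUSP8 entered the test through its knockout counts, and with it set aside 8 of 9 passed, 4 in each direction. The groups did not overlap for 9 of the 10 genes, or 8 of 9 with DUSP8 set aside, against 58.9% of all genes tested. When a fold of at least 1.5 was tested, 2 of the 10 passed, DUSP5 and DUSP8, both higher, against 14% of all genes, 8.5% higher and 5.47% lower. With DUSP8 set aside, 1 of 9 passed that test. The count of higher genes was 3 without wild-type replicate 3 and 3 without knockout replicate 2. The median log2 fold change (knockout minus wild type) was 0.043 over the 10 genes and 0.0011 over all genes tested.

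**Figure D1:**
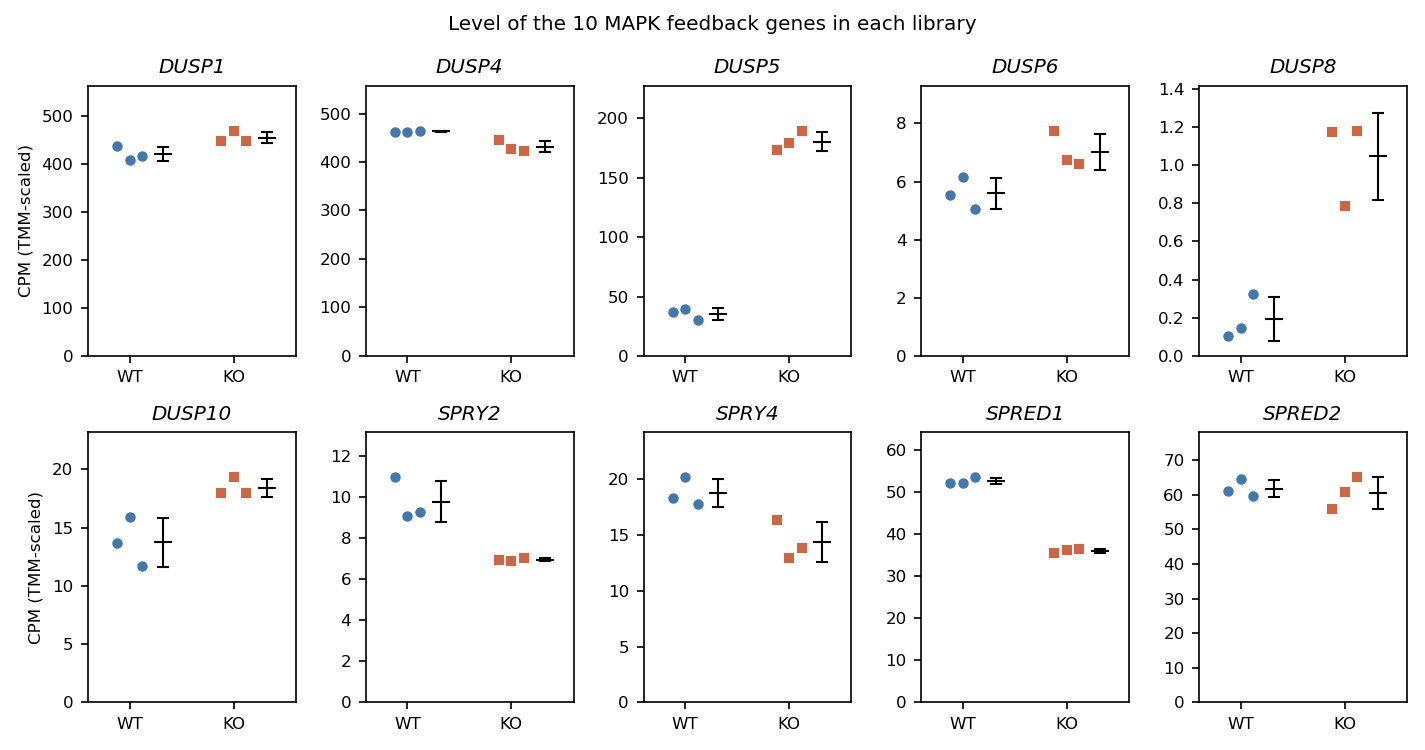
Level of each of the 10 genes in CPM (vertical axes, from 0) in the 3 wild-type (WT, circles) and 3 knockout (KO, squares) libraries, with the mean and SD of each group beside the points. The groups are far apart for DUSP5, at 30.1 to 39.4 against 173 to 189 CPM, and overlap for SPRED2.

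DUSP5 encodes an inducible nuclear phosphatase specific for ERK. The gene is ENSG00000138166 (chromosome 10 from 110497838 to 110511544, plus strand). It was at 36.7, 39.4 and 30.1 CPM in wild type and 173, 179 and 189 CPM in the knockout. Each knockout library was far above each wild-type library. The mean went from 35.4 ± 4.79 to 180.5 ± 8.24 CPM (SD, n = 3 each), a log2 fold change of 2.36 (SE 0.0646) or 5.13-fold, with an edgeR adjusted p of 3.25e-25. Of the 18505 genes tested, 401 had a larger rise. The value was 2.25 to 2.51 under the 18 alternatives tried, and it passed in each.

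DUSP1 and DUSP4 encode the other inducible nuclear phosphatases of the set, which act on ERK and also on JNK or p38. Per length, in TPM, they were the most abundant of the 10 in wild type. DUSP1 (ENSG00000120129, chromosome 5 from 172768090 to 172771195, minus strand) was at 437, 408 and 416 CPM in wild type and 447, 468 and 448 CPM in the knockout. The knockout libraries were all above the wild-type ones by a narrow margin, with a log2 fold change of 0.11 (SE 0.0409) and an edgeR adjusted p of 0.0208. DUSP4 (ENSG00000120875, chromosome 8 from 29333064 to 29350668, minus strand) was at 462, 462 and 464 CPM in wild type and 445, 427 and 424 CPM in the knockout. It was lower in each knockout library, with a log2 fold change of -0.10 (SE 0.0394) and an edgeR adjusted p of 0.0312.

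These 2 small differences were less firm than that of DUSP5. Of the genes tested, 82.6% changed by more than DUSP1 and 84.4% by more than DUSP4, in either direction. DUSP1 lost its call without wild-type replicate 2 (edgeR adjusted p 0.11), wild-type replicate 3 (0.0604) or knockout replicate 2 (0.105). DUSP4 lost its call without wild-type replicate 1 (edgeR adjusted p 0.0666), 2 (0.0514) or 3 (0.0755), or knockout replicate 2 (0.122) or 3 (0.122). When libraries were scaled by counts per kb of exon (TPM, rescaled to a common total) the DUSP4 value was 0.047, above 0. On that scale the median of all genes moved by 0.15, and relative to that shift DUSP4 was at -0.10. The split of calls over all genes was 5028 higher and 4865 lower with TMM factors and 6782 higher and 3278 lower on the TPM scale.

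DUSP6 encodes the cytoplasmic ERK-specific phosphatase whose RNA is often read as a gauge of ERK output. The gene is ENSG00000139318 (chromosome 12 from 89347232 to 89353271, minus strand). It was sparse here, at 5.54, 6.16 and 5.07 CPM in wild type and 7.74, 6.74 and 6.61 CPM in the knockout, from 166 to 275 counts per library. The lowest knockout library was only just above the highest wild-type one. The log2 fold change was 0.33 (SE 0.141) with an edgeR adjusted p of 0.0452. DUSP6 lost its call without wild-type replicate 1 (edgeR adjusted p 0.0877) or 3 (0.164) and without knockout replicate 1 (0.165) or 2 (0.061), and DESeq2 gave an adjusted p of 0.0582. It also lost the call with the replicate block (edgeR adjusted p 0.0526), with upper-quartile factors (0.0996) and with no filter on low counts (0.0717). In GENCODE 29, 40.5% of the exonic bases of DUSP6 lie opposite an antisense gene, and no source used here gives the strand setting of the counting. That gene (AC024909.2) had 1 to 8 counts in each library. These counts do not show how reads over the shared bases were assigned, and the effect on the DUSP6 level was not tested.

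DUSP8 and DUSP10 encode phosphatases that act mainly on JNK and p38. DUSP8 (ENSG00000184545, chromosome 11 from 1554044 to 1571920, minus strand) had 4, 4 and 13 counts in wild type and 38, 32 and 48 counts in the knockout. It was near the floor in wild type, where 3 counts correspond to 0.0749 to 0.111 CPM, and every knockout library was above every wild-type one. The level went from 0.193 ± 0.116 to 1.05 ± 0.227 CPM (SD, n = 3 each), with a log2 fold change of 2.38 (SE 0.498), a 95% interval of 1.41 to 3.36 and an edgeR adjusted p of 0.000127. DUSP8 entered the test through its knockout counts, so its call does not rest on the same footing as that of DUSP5. Without wild-type replicate 3, the library with 13 counts, the log2 fold change was 3.04.

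DUSP10 (ENSG00000143507, chromosome 1 from 221701424 to 221742176, minus strand) was at 13.7, 15.9 and 11.7 CPM in wild type and 17.99, 19.3 and 18.01 CPM in the knockout. The knockout libraries lay close together and above the more scattered wild-type ones. The log2 fold change was 0.43 (SE 0.0998), or 1.35-fold, with an edgeR adjusted p of 0.000432. It passed without each of the 6 libraries in turn, at values of 0.32 to 0.54.

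SPRY2 and SPRY4 encode Sprouty proteins, which are induced by ERK and restrain signalling from receptor kinases to RAS and RAF. SPRY2 (ENSG00000136158, chromosome 13 from 80335976 to 80340951, minus strand) was at 10.9, 9.09 and 9.29 CPM in wild type and 6.94, 6.89 and 7.03 CPM in the knockout. The 3 knockout libraries were almost level, and all were below wild type. SPRY2 fell by 0.49 on the log2 scale (SE 0.122), with an edgeR adjusted p of 0.000904. SPRY4 (ENSG00000187678, chromosome 5 from 142310427 to 142326455, minus strand) was at 18.3, 20.1 and 17.8 CPM in wild type and 16.4, 12.9 and 13.8 CPM in the knockout. The highest knockout library was below the lowest wild-type one. SPRY4 fell by 0.38 (SE 0.0966), with an edgeR adjusted p of 0.00111.

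SPRED1 and SPRED2 encode membrane-bound relatives of Sprouty, and SPRED1 brings the RAS-inactivating protein neurofibromin to the membrane. SPRED1 (ENSG00000166068, chromosome 15 from 38252326 to 38357249, plus strand) was at 52.1, 52.2 and 53.4 CPM in wild type and 35.6, 36.1 and 36.5 CPM in the knockout. The libraries of each group lay close together and the groups were well apart. SPRED1 fell by 0.54 (SE 0.0599), the largest fall of the 10, with an edgeR adjusted p of 2.1e-09. SPRED2 (ENSG00000198369, chromosome 2 from 65310851 to 65432637, minus strand) was at 61.2, 64.6 and 59.7 CPM in wild type and 56.0, 60.7 and 65.0 CPM in the knockout, so the groups overlapped. Its log2 fold change was -0.026 (SE 0.0588), the 95% interval ran from -0.14 to 0.089 and the edgeR adjusted p was 0.741. The log2 fold changes of SPRY2, SPRY4 and SPRED1 were below 0 and passed in 17 of 18 alternatives each, the exception being the test against a 1.5-fold change, while SPRED2 was above 0 on the TPM scale and without wild-type replicate 2 or knockout replicate 1.

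**Figure D2:**
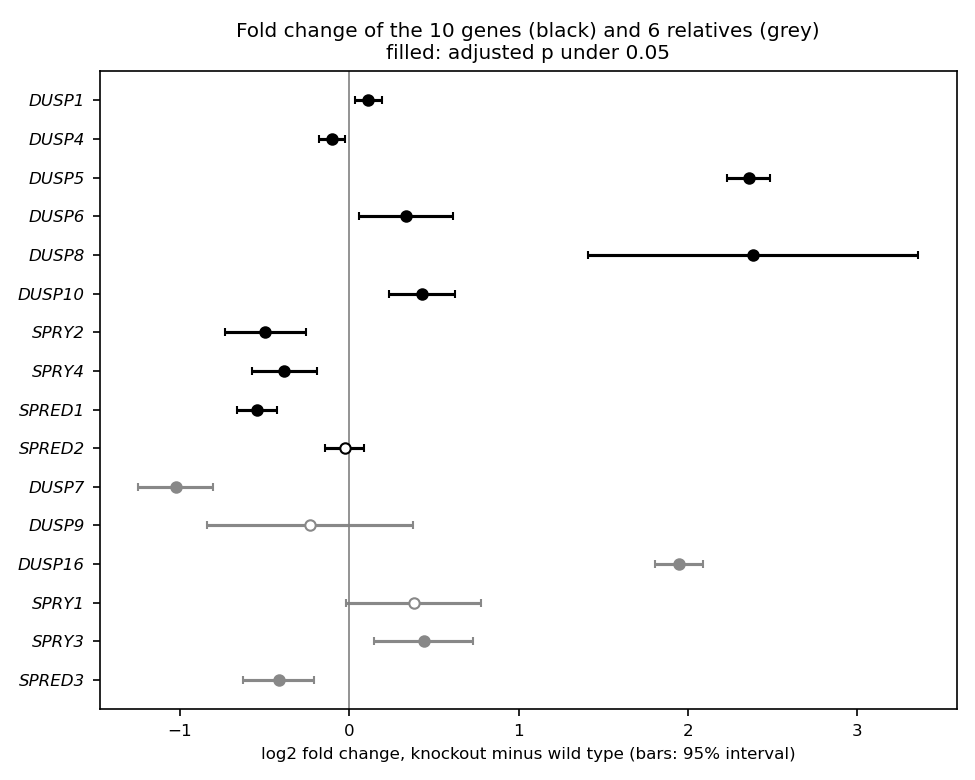
Log2 fold change, knockout minus wild type (horizontal axis), with a 95% interval for the 10 genes (black) and for 6 relatives (grey), where filled points passed edgeR's test at an adjusted p of 0.05. DUSP5, DUSP8 and DUSP16 lie at 1.95 or above, and the fallen genes lie between -1.02 and -0.10.

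The remaining members of the same families gave values on both sides too. DUSP16, a JNK and p38 phosphatase like DUSP8 and DUSP10, was at 14.8, 17.4 and 18.2 CPM in wild type and 64.7, 63.8 and 65.7 CPM in the knockout. It rose by 1.95 (SE 0.0718), with an edgeR adjusted p of 1.48e-21. DUSP7, a cytoplasmic ERK phosphatase like DUSP6, was at 14.2, 15.3 and 13.7 CPM in wild type and 7.77, 7.13 and 6.31 CPM in the knockout. It fell by 1.02 (SE 0.113), with an edgeR adjusted p of 2.01e-09, while DUSP6 was higher. SPRED3 fell by 0.42 and SPRY3 rose by 0.44 (edgeR adjusted p 0.00133 and 0.0128). SPRY1 had a log2 fold change of 0.38 and the third cytoplasmic ERK phosphatase gene, DUSP9, one of -0.23, with edgeR adjusted p values of 0.117 and 0.56. DUSP2 was too low to test, with 14 counts over the wild-type libraries and 30 over the knockout libraries.

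Levels between genes were compared per length, in TPM. Between the groups, the TPM scale moves the median log2 fold change of all genes up by 0.15. DUSP4, for example, has a higher mean TPM but a lower mean CPM in the knockout. In wild type the order was DUSP1 (769 ± 33.2 TPM), DUSP4 (236 ± 1.94), DUSP5 (50.03 ± 6.56), SPRED2 (44.3 ± 1.52), SPRED1 (23.5 ± 0.408), DUSP10 (17.4 ± 2.55), SPRY2 (11.9 ± 1.31), SPRY4 (10.5 ± 0.633), DUSP6 (4.46 ± 0.409) and DUSP8 (0.155 ± 0.0934), each as mean and SD over n = 3. Neighbours whose library values overlapped were DUSP5 with SPRED2 and SPRY2 with SPRY4. In the knockout DUSP5 stood second, at 283 ± 15.8 TPM, above DUSP4 at 244 ± 4.52 TPM in each library, and DUSP10 (25.9 ± 1.08 TPM) stood above SPRED1 (17.9 ± 0.413 TPM). SPRY2 and SPRY4 again overlapped there.

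Ratios within a library do not depend on how libraries are scaled. DUSP5 RNA was 0.18 to 0.236 of DUSP4 RNA per length in wild type and 1.08 to 1.24 of it in the knockout. The ratio of DUSP10 to DUSP16 was 1.26 to 1.82 in wild type and 0.538 to 0.594 in the knockout, so the more abundant of these JNK and p38 phosphatase RNAs differed between the groups. SPRED1 was 0.505 to 0.559 of SPRED2 in wild type and 0.35 to 0.397 in the knockout. SPRY2 and SPRY4 kept overlapping ratios, 0.975 to 1.29 and 0.915 to 1.15.

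The 10 genes and their 7 relatives were also summed by class, as a description with no test. The nuclear inducible phosphatases DUSP1, DUSP2, DUSP4 and DUSP5 made up 87.3% to 88.1% of the summed TPM in wild type and 88.6% to 88.9% in the knockout. The JNK and p38 phosphatases DUSP8, DUSP10 and DUSP16 went from 2.19% to 2.65% in wild type to 4.44% to 4.51% in the knockout. The cytoplasmic ERK phosphatases DUSP6, DUSP7 and DUSP9 were at 1.27% to 1.38% and 0.715% to 0.911%. Sprouty genes were at 2.19% to 2.31% and 1.44% to 1.59%, and SPRED genes at 6.07% to 6.52% and 4.23% to 4.70%. The share of each class was apart between the groups, with 2 classes higher in the knockout and 3 lower. A share falls when other classes rise, and the sum over the 17 genes was 1202 ± 34.7 TPM in wild type and 1632 ± 32.3 TPM in the knockout. Sums in TPM include the upward shift of 0.15 in the median log2 fold change of all genes on that scale. The summed TPM of the SPRED class overlapped between the groups, at 74.6 to 76.9 in wild type and 67.4 to 77.4 in the knockout.

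**Figure D3:**
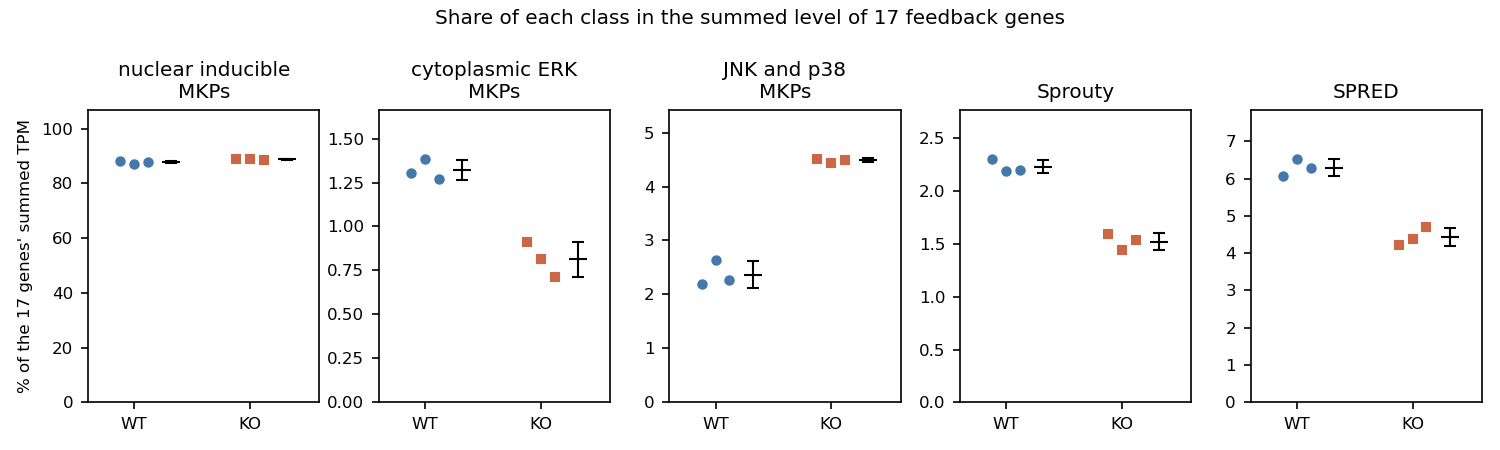
Share of each class in the summed TPM of 17 feedback genes (vertical axes, percent, from 0) in the wild-type (WT, circles) and knockout (KO, squares) libraries, with the mean and SD of each group. The JNK and p38 class lies at 2.19% to 2.65% in wild type and 4.44% to 4.51% in the knockout, while the cytoplasmic ERK, Sprouty and SPRED classes hold lower shares in the knockout.

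The rest of the pathway was read from lists of genes chosen by their role, and each list gene said to have risen or fallen passed edgeR's test at an adjusted p of 0.05. Over all genes tested, 27.2% rose and 26.3% fell, the shares to set beside each list. Among 16 growth factor ligands, 15 were tested, 9 rose and 4 fell, and their median log2 fold change was 0.73. The EGF receptor ligand genes BTC and TGFA rose by 2.09 and by 1.07, FGF2 rose by 0.73 from 113 ± 4.33 to 187 ± 15.2 CPM, and PDGFA rose by 0.85. The 4 that fell, named after their values were seen, were EGF, EREG, NRG1 and HGF. EGF passed narrowly (edgeR adjusted p 0.0472) with overlapping groups, and 3 ligands were lower without any 1 of the 6 libraries, in DESeq2 and in limma-voom. FGF1 and FGF5, which rose, and HGF had few counts in the lower group, and with a filter of 1 CPM in 3 libraries 11 ligands were tested, 7 rose and 3 fell. Among 13 receptor kinases, 12 were tested, 7 rose and 3 fell, with a median of 0.25. AXL rose by 0.51 and MET, the HGF receptor, rose by 0.42, while FGFR4 fell by 1.19. PDGFRB fell by 3.47 from a low level of 1.34 ± 0.323 CPM, with 8, 0 and 5 counts in the knockout libraries. It entered the test through its wild-type counts. PDGFRA, named after its value was seen, was the other receptor gene that fell.

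Of 20 genes of the RAS-ERK cascade, from the adaptors at the receptor to the RSK kinases that ERK activates, 6 rose and 7 fell, with a median of -0.017. For this list and the brakes below, the shares over all genes tested were 27.2% higher and 26.3% lower. MAP2K1, which encodes the ERK-activating kinase MEK1, rose by 0.59 from 85.0 ± 3.67 to 128 ± 1.6 CPM. MAPK3, which encodes ERK1, fell by 0.67, the ERK-activated kinase gene RPS6KA3 fell by 0.41 and NRAS fell by 0.38. Of 13 other brakes of this cascade, 6 rose and 4 fell, with a median of 0.19. RASA2 and DAB2IP, which encode proteins that switch off RAS, rose by 1.13 and by 1.02, ERRFI1, an inhibitor of the EGF receptor, rose by 0.51, and the phosphatase subunit gene PPP2R2A rose by 0.43. The 4 that fell, named after their values were seen, were RASAL2, PEBP1, IL17RD and PTPN2.

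Of 30 other genes that ERK is known to induce, 29 were tested, 18 rose and 6 fell, with a median of 0.65. Over all genes tested, 27.2% rose and 26.3% fell, with a median of 0.0011. ATF3, a stress-induced transcription factor gene, rose by 3.05 from 2.65 ± 0.423 to 21.9 ± 0.37 CPM (edgeR adjusted p 1.36e-20). KLF6 rose by 1.36 and the survival gene MCL1 rose by 1.03 from 241 ± 3.16 to 493 ± 10 CPM. HMGA2, a chromatin protein gene, fell by 2.11 from 234 ± 3.19 to 53.9 ± 4.75 CPM. ETV4 and ETV5, named after their values were seen, encode ETS factors that are read with DUSP6, SPRY2 and SPRY4 as ERK output. ETV4 fell by 0.79 and ETV5 fell by 0.36, in the direction of SPRY2 and SPRY4 and opposite to DUSP6. Other genes of this list, also named after their values were seen, went both ways. EGR1 rose by 1.62, EPHA4 by 0.83, EPHA2 by 0.65 and CCND1, whose groups overlapped, by 0.15, while PHLDA1 fell by 0.26. With 18 genes of the list higher and 6 lower, ETV4 and ETV5 do not stand for the whole list. Many listed genes, ATF3 among them, also respond to stress kinases.

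Of 21 genes of the stress-activated cascades, 8 rose and 5 fell, with a median of 0.052, beside 27.2% and 26.3% of all genes tested. The list holds JNK and p38 genes, which encode the substrates of DUSP8, DUSP10 and DUSP16, the kinases above them, some of their targets, and the ERK5 genes MAPK7 and MAP2K5. MAPK11, a p38 kinase gene, rose by 1.01 from 10.4 ± 0.368 to 20.8 ± 0.401 CPM, and MAP3K1 rose by 0.95. The p38-activated kinase gene MAPKAPK2 rose by 0.30, and its relative MAPKAPK3 fell by 0.48. The other 4 that fell, named after their values were seen, were MAP3K7, MAPK9, MAPK13 and MAP2K5. RNA levels do not measure phosphorylation, so the activity of ERK, JNK or p38 was not measured in these libraries.

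**Figure D4:**
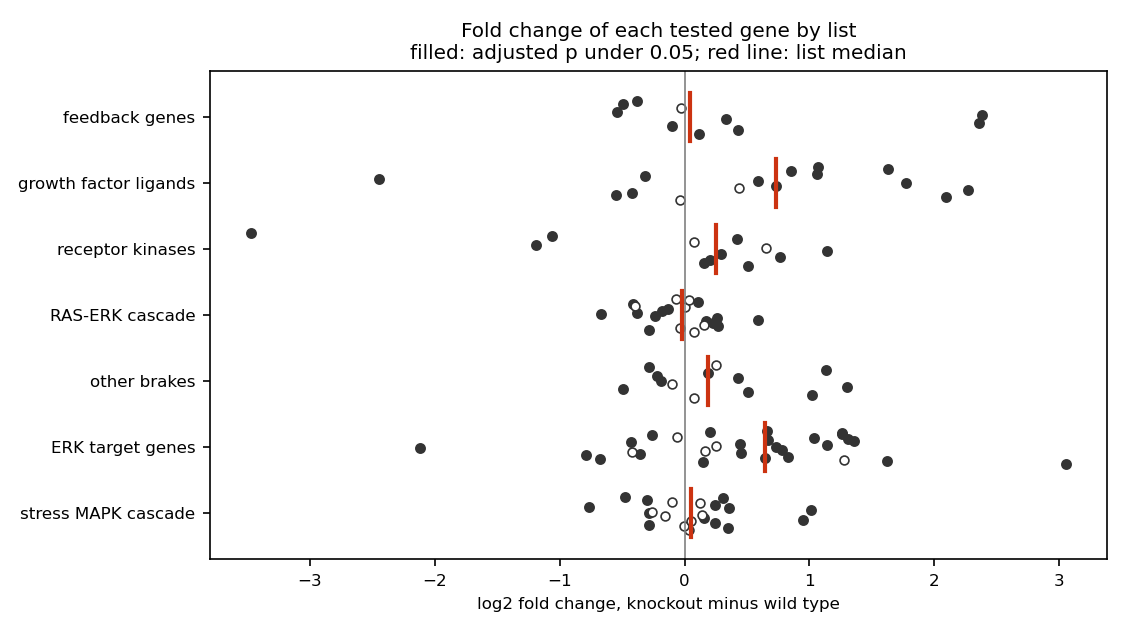
Log2 fold change, knockout minus wild type (horizontal axis), of each tested gene in 7 lists (rows), where filled points passed edgeR's test at an adjusted p of 0.05 and red lines are list medians. The medians are 0.043 for the 10 feedback genes, 0.73 for ligands, 0.65 for ERK target genes and -0.017 for the RAS-ERK cascade.

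By the smallest Euclidean distance between centred log2 CPM profiles over the 6 libraries, the genes most like DUSP6 among 11124 with a mean of at least 5 CPM were NOSIP (distance 0.0948), SNHG26 (0.0974) and DHX37 (0.103). Their log2 fold changes were 0.29, 0.37 and 0.34, beside 0.33 for DUSP6. With 6 libraries in 2 groups, such likeness rests mostly on the size of the difference between the groups.

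**Figure D5:**
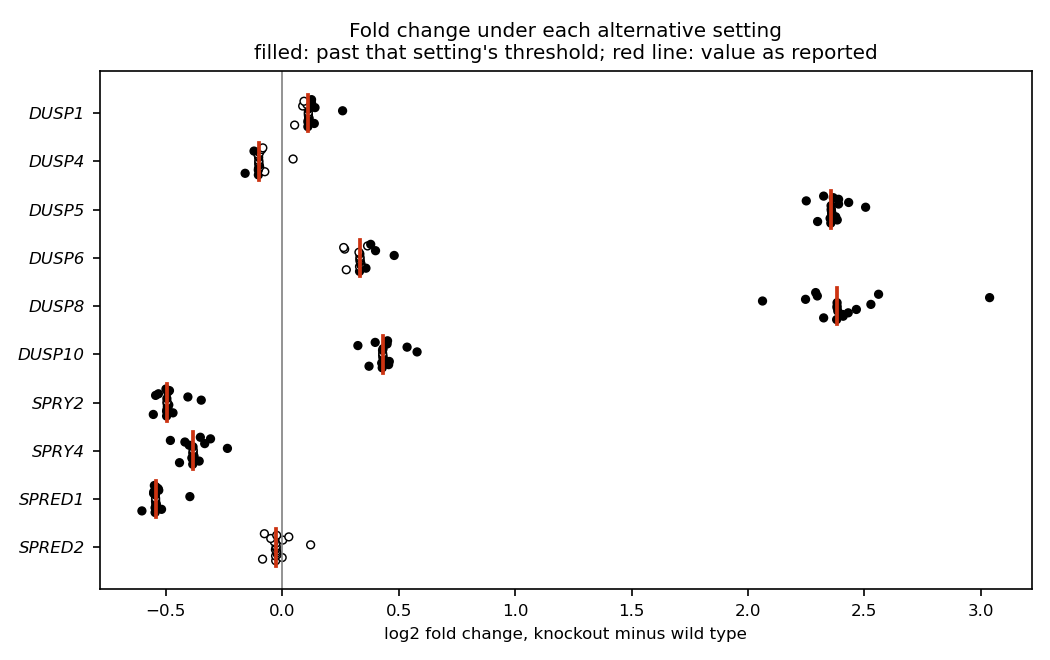
Log2 fold change, knockout minus wild type (horizontal axis), of each of the 10 genes under each alternative setting (points, filled where past that setting's threshold), with the reported value as a red line. DUSP5 stays between 2.25 and 2.51, DUSP8 spreads from 2.06 to 3.04, and DUSP4 and SPRED2 have values on both sides of 0.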

How the data were processed

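Total RNA from cultured A549 cells was made into libraries with a stranded kit, per the labels' protocols. The authors deposited 1 table of counts, whole numbers per Ensembl gene, with 1 column per library and no normalization. The build GRCh38 is named, per the submitters' processing notes, which also list STAR 2.7.0d, then featureCounts 2.0.1, Trim Galore 0.6.6 and edgeR 3.32.1 without their settings. No source used here gives the annotation, the strand setting or the treatment of reads with several hits. If counting ignored strand, reads from a gene and its antisense partner cannot be told apart.

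Samples were grouped by their titles. Counts were filtered with edgeR's filterByExpr (18505 of 60617 genes kept) and scaled with TMM factors. The main test was edgeR 4.0.16's quasi-likelihood test in R 4.3.3 with genotype as the only term, two-sided, with Benjamini-Hochberg adjustment over all genes tested and a threshold of 0.05. Each standard error is the log2 fold change over the root of its F value, and 95% intervals follow from it. TPM used exon-union lengths from GENCODE 29, which may differ from the authors' annotation. The alternatives were DESeq2 1.42.0, limma-voom (limma 3.58.1), other scalings and filters, a replicate block, leaving out each library, and stricter thresholds. Floors and depth limits cover counting error only, and at these depths 3 counts are 0.0735 to 0.111 CPM.

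Symbols matched all 175 listed genes, each to 1 identifier. Libraries of a group differed by more than sampling noise (chi-square per degree of freedom 4.2 to 6.09), so none was treated as a repeat deposit of another, though this does not show that they are separate cultures. The genes and lists were chosen with earlier results of these data known. Named are the 10 genes, YTHDF1, the tested relatives, up to 4 genes per list by smallest adjusted p, and genes of like pattern to DUSP6. Others are said to be named after their values were seen.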

Additional observations from a re-analysis of the deposited data

How the results depend on the processing

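YTHDF1, DUSP5 and DUSP8 kept their direction and their call under each alternative that tested them, 18, 18 and 17 in number. DUSP8 was not tested with the filter of 1 CPM in 3 libraries. When a fold of at least 1.5 was tested, 2585 genes passed, 1573 higher and 1012 lower, with 2 of the 10 genes higher and 0 lower. DUSP1 (0.11), DUSP10 (0.43), DUSP6 (0.33), DUSP4 (-0.10), SPRED1 (-0.54), SPRY2 (-0.49) and SPRY4 (-0.38) did not pass that test, which asks for a larger change. At an adjusted p of 0.01, 3 genes were higher, and DUSP1 (0.11), DUSP6 (0.33) and DUSP4 (-0.10) no longer passed. With upper-quartile factors 3 genes were higher, and DUSP1 (0.053) and DUSP6 (0.28) did not pass. DUSP4 did not pass with library size only (-0.075) or with no filter on low counts (-0.097), and DUSP6 did not pass with no filter (0.34) or in DESeq2 (0.33). The cause of these losses was not tested. TPM scaling and the fit without mitochondrially encoded genes were chosen after seeing the data. TPM scaling put DUSP4 at 0.047 and SPRED2 at 0.12, both above 0, and that scaling moves the median of all genes up by 0.15. Of all calls 50.8% were higher with TMM and 67.4% with TPM scaling.

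Leaving out each library gave 3 to 5 of the 10 genes higher and 3 to 4 lower, and 9059 to 9486 genes called in all. DUSP1 ranged from 0.088 to 0.14, DUSP4 from -0.12 to -0.083, DUSP6 from 0.26 to 0.40 and SPRED2 from -0.077 to 0.028. SPRED2 was 0.0023 without wild-type replicate 2 and 0.028 without knockout replicate 1, and DUSP9, at -0.40 to 0.013, was 0.013 without knockout replicate 3. With the replicate block DUSP6 had a log2 fold change of 0.33 and an edgeR adjusted p of 0.0526, and the block changed no other call among the 10 genes, while 9703 genes passed in all. Same-numbered libraries did not deviate together (correlations of -0.026 to 0.0079, and 2 of 6 libraries correlated best with their own number), so the numbers do not pair the samples. In the wild-type libraries depth limits DUSP8 to 4 to 13 counts.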

Other observations

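Among 10 atypical dual-specificity phosphatases, which lack the MAPK-docking domain, 3 rose and 0 fell at an edgeR adjusted p of 0.05, beside 27.2% and 26.3% of all genes tested, and the median log2 fold change was 0.16. DUSP22 rose by 0.80 from 18.3 ± 0.934 to 31.9 ± 1.39 CPM, DUSP3 rose by 0.46 from 118 ± 3.95 to 162 ± 1.7 CPM, and DUSP11, an RNA phosphatase gene, rose by 0.23. DUSP14 had a log2 fold change of 0.30 and an edgeR adjusted p of 0.117.

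The spread between replicates differed among the feedback genes. In wild type the coefficient of variation was 13.5% for DUSP5, 15.2% for DUSP10 and 60.2% for DUSP8, where the medians of the 500 genes nearest in level were 3.71%, 6.87% and 34.2%. In the knockout the values were 4.57%, 4.11% and 21.7%, beside medians of 3.74%, 6.9% and 30.7%. DUSP4 (0.198%) and SPRED1 (1.41%) varied less in wild type than the medians of their like genes (2.93% and 4.56%). Each value rests on 3 libraries, and the difference in spread between the groups was not tested.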
